A study of Homo sapiens with 2 samples.

Results

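The annexin genes were examined in 2 sequencing libraries made from matched polyadenylated RNA of the human cell line MCF10a-Snail-ER. Members were the rows of both count tables whose Ensembl identifier maps in GENCODE release 44 to ANXA1, ANXA2, ANXA3, ANXA4, ANXA5, ANXA6, ANXA7, ANXA8, ANXA8L1 or ANXA11, which gave 10 genes of 58735. MCF10a is a non-tumorigenic mammary epithelial line, and the derivative stably carries the repressor Snail fused to the estrogen receptor, which tamoxifen activates to start an epithelial-to-mesenchymal transition. Both libraries came from cells given 100 nM tamoxifen for 1 day, in medium that per the labels also held horse serum, EGF, hydrocortisone, cholera toxin and insulin. One library was Oxford Nanopore direct RNA, in which native RNA strands are read, and the other was Illumina TruSeq stranded mRNA, in which RNA is fragmented and copied to cDNA. Each platform has 1 library and untreated cells are not among the samples. The comparison is therefore between these 2 libraries, no value has a replicate, and every interval and test covers counting error only.

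Annexins are a family of proteins that bind negatively charged phospholipids in a calcium-dependent way through a conserved core of repeats, while their variable N-terminal ends bind partners such as S100 proteins. In epithelial cells they are known for work at the plasma membrane, in vesicle traffic, in organising cortical actin and in patching membrane wounds. ANXA8 and ANXA8L1 are near-identical copies on chromosome 10, and ANXA2 has processed pseudogenes, which are copies of its mRNA inserted elsewhere in the genome.

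The sequence that sets these copies apart is shown first, since the counts of ANXA8, ANXA8L1 and ANXA2 rest on it. The coding sequences of the canonical ANXA8 and ANXA8L1 transcripts (GENCODE release 44, hg38) are each 984 bases with the stop codon and differ at 5 positions, an identity of 99.5%. Counted from 1 at the A of the start codon, with the base of ANXA8 first, these are T16G, C276T, A528G, G530C and T939C. Windows of 60 bases hold all 5, given 5′ to 3′ on the coding strand with the differing bases in capitals. The first covers coding positions 1 to 60.
ANXA8: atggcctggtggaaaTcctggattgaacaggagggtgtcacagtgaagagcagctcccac
ANXA8L1: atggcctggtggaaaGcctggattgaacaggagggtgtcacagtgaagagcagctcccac
The next covers coding positions 246 to 305.
ANXA8: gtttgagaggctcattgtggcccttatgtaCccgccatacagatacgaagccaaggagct
ANXA8L1: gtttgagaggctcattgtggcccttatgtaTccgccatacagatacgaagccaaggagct
Positions 498 to 557 hold a pair of differences.
ANXA8: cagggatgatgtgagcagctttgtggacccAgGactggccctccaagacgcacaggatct
ANXA8L1: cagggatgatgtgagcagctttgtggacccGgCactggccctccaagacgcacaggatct
The last covers coding positions 909 to 968.
ANXA8: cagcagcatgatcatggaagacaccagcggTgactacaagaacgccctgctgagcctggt
ANXA8L1: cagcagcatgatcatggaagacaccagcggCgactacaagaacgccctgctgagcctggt

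Between these positions the copies read the same for up to 408 coding bases, so a short read from most of either mRNA could come from either gene. Of the 50-base stretches of the canonical ANXA8 transcript, 83.2% also occur in annotated transcripts of another gene, and for ANXA8L1 the share was 86.8%. At 150 bases the shares were 57.2% and 60.5%, and at 500 bases they were 4.14% and 4.47%. ANXA1, ANXA3, ANXA4, ANXA5 and ANXA6 had no such stretch at any length from 50 to 500 bases in their canonical transcripts.

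ANXA2 is closest to the pseudogene ANXA2P2 (chromosome 9, 33624274 to 33625293). Over the 1020 coding bases of ANXA2 they differ at 16 positions, an identity of 98.4%, with a longest identical run of 221 bases. The 150 coding bases with the most differences, positions 71 to 220, hold 6 of them, in capitals.
ANXA2: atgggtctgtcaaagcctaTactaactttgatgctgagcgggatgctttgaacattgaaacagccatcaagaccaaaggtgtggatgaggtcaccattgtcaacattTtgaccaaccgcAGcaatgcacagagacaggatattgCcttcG
ANXA2P2: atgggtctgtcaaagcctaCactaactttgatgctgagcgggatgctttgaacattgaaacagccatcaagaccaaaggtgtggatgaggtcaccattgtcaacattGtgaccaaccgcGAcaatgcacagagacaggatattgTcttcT
Of the 50-base stretches of the canonical ANXA2 transcript, 38.2% occur in another gene, and at 300 bases none does. ANXA2P1 and ANXA2P3 are more distant, at 93.8% and 92.2% identity to the ANXA2 coding sequence.

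**Figure D1:**
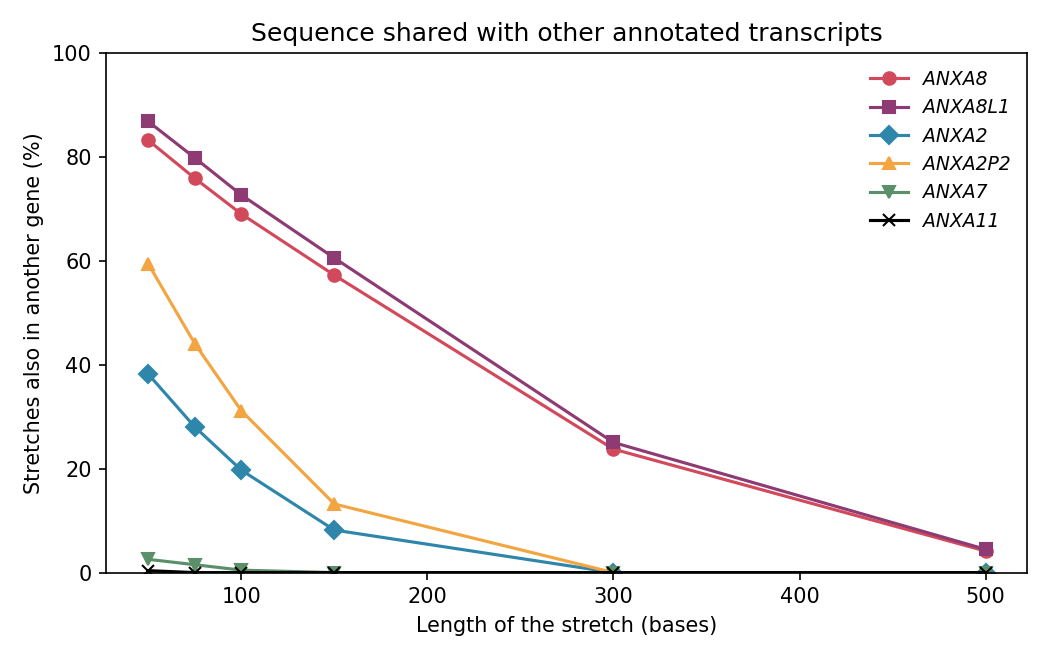
Share of stretches of the canonical transcript (vertical axis, %) that also occur in annotated transcripts of another gene, by length of the stretch (horizontal axis, bases), for 5 annexin genes and the pseudogene ANXA2P2. At 50 bases ANXA8 and ANXA8L1 are above 80% and ANXA2 is at 38.2%, and at 300 bases only the ANXA8 copies remain above 0.

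The total was 403235 counts by Nanopore and 191741714 by Illumina, so 1 count stood for 2.48 CPM (counts per 1000000 counts of the library) in the former and 0.00522 CPM in the latter. The depth limit, taken as 3 counts, was 7.44 CPM (Nanopore) and 0.0156 CPM (Illumina). The labelled cell type was checked against marker genes. All 7 basal epithelial markers (KRT5, KRT14, KRT17, KRT6A, TP63, ITGB4, LAMB3) had counts in both libraries, and their sums were 3618 CPM (Nanopore) and 3270 CPM (Illumina). The 5 luminal markers summed to 687 and 560 CPM. KRT8 and KRT18 held most of this, with 157 and 113 Nanopore counts, while EPCAM and CDH1 had 3 each and KRT19 had 1. Fibroblast markers summed to 27.3 and 33.6 CPM, most of it DCN, with COL1A1, COL3A1 and LUM at 0 Nanopore counts. Of the leukocyte markers CD14 had 5 Nanopore and 2100 Illumina counts, while PTPRC and CD3E had no Nanopore count and 2 and 0 Illumina counts. Endothelial markers had no Nanopore count and 5.16 CPM by Illumina. The part of these markers' cell types in the annexin levels was not tested, and in RNA of a whole culture fewer expressing cells and less RNA per cell cannot be told apart.

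All 10 annexins had counts in both libraries, while of all 58735 identifiers 15660 had a Nanopore count and 27323 an Illumina count. Together the annexins held 1015 Nanopore counts, 0.252% of the library (exact 95% interval 0.236 to 0.268%), and 885377 Illumina counts, 0.462% (0.461 to 0.463%). ANXA2 alone made up 63.8% of the annexin counts by Nanopore and 65.8% by Illumina. With ANXA1 and ANXA5 the share was 89.8% by Nanopore and 91.7% by Illumina. The family in these cells was therefore mostly the mRNA of 3 genes in either library.

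Levels of different genes were compared per strand or per length. A direct RNA read is 1 strand whatever its length, so Nanopore CPM was used, while Illumina counts were divided by the length of the Ensembl canonical transcript and scaled to a sum of 1000000 (TPM). By both measures ANXA2 was highest, ANXA5 next and ANXA1 after it. The level of ANXA2 was 4.35 times that of ANXA5 by Nanopore CPM (exact 95% interval 3.63 to 5.23) and 4.51 times by Illumina TPM with canonical length. ANXA5 was 1.31 times ANXA1 by Nanopore (1.02 to 1.68) and 1.25 times by Illumina TPM. ANXA1 and the next gene were further apart, 4.07-fold by Nanopore and 7.29-fold by Illumina TPM, with intervals that did not overlap. These Illumina ratios rest on the canonical length. With the union of all exons of each gene ANXA2 was 1.08 times ANXA5, ANXA5 was 2.23 times ANXA1 and ANXA1 was 2.69 times ANXA7, and with the mean transcript length the ratios were 3.29, 1.62 and 5.21.

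Below these 3 genes the orders parted. By Nanopore CPM they were ANXA8, ANXA11, ANXA4, ANXA7, ANXA3, ANXA6 and ANXA8L1, at 4 to 28 counts per gene, and each neighbouring pair had overlapping intervals. Further apart the intervals parted: that of ANXA8 lay above those of ANXA3, ANXA6 and ANXA8L1. Those of ANXA11 and ANXA4 also lay above that of ANXA8L1. By Illumina TPM the order was ANXA7, ANXA4, ANXA3, ANXA6, ANXA8, ANXA11 and ANXA8L1, with no overlap between neighbours. That Illumina order depends on the length used: ANXA11 moved from place 9 of 10 to place 5 with the union of all exons and to place 8 with the mean transcript length. ANXA2, ANXA5 and ANXA1, in this order, were highest and ANXA8L1 lowest with each of the 3 lengths. Across the 10 genes Spearman's rho between Nanopore CPM and Illumina TPM was 0.697, as a description over genes that share libraries and depth.

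**Figure D2:**
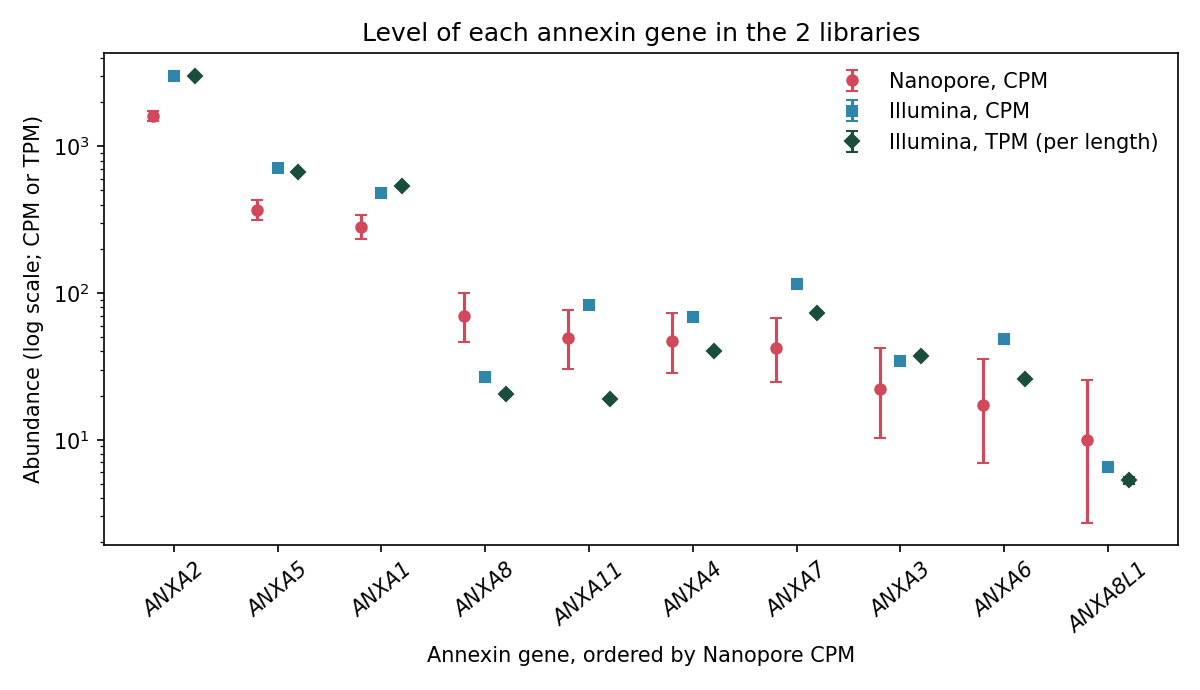
Level of each of the 10 annexin genes (horizontal axis, ordered by Nanopore CPM) as Nanopore CPM, Illumina CPM and Illumina TPM on a log axis, with exact 95% counting intervals. ANXA2, ANXA5 and ANXA1 stand above the rest in every measure, and ANXA8 and ANXA8L1 are the 2 genes whose Nanopore point lies above both Illumina points.

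The libraries were then compared gene by gene, as the log2 ratio of Nanopore to Illumina CPM after adding 1 to each. Genes whose CPM averaged 5 or more over both libraries were tested, 12414 in all, and all 10 annexins passed. Of the annexins 1, ANXA8, was at least 2-fold higher by Nanopore and 2, ANXA6 and ANXA7, were at least 2-fold higher by Illumina. Past 2-fold there were 19.2% of all tested genes in the Nanopore direction and 30.2% in the Illumina direction. The annexins had a median log2 ratio of −0.75 and all tested genes one of −0.42. By the two-sided exact conditional binomial test with Benjamini-Hochberg adjustment over all tested genes, 7 of 10 annexins had an adjusted p-value under 0.05, against 47.4% of all tested genes. That test compares these 2 libraries and not the platforms in general.

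With the Illumina counts divided by canonical transcript length, 2 annexins, ANXA8 and ANXA11, were at least 2-fold higher by Nanopore and none was 2-fold higher by Illumina. The background on this scale was 34.8% and 11.1% of 12350 genes. With the mean transcript length 1 annexin, ANXA8, was 2-fold higher by Nanopore and 3, ANXA5, ANXA6 and ANXA7, by Illumina (25.1% and 17.9% of all). With the union of all exons 3, ANXA2, ANXA4 and ANXA8, were 2-fold higher by Nanopore and 1, ANXA7, by Illumina (33.2% and 12.8% of all). With canonical length the median ratio on the log2 scale was −0.64 for the annexins and 0.48 for all tested genes. The gap depended on the length used. With the union of all exons the middle annexin values were 0.21 (ANXA3) and 0.61 (ANXA8L1), on either side of the median of 0.42 for all tested genes. With the mean transcript length the middle values were −0.81 (ANXA2) and −0.74 (ANXA3), beside 0.07 for all tested genes.

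**Figure D3:**
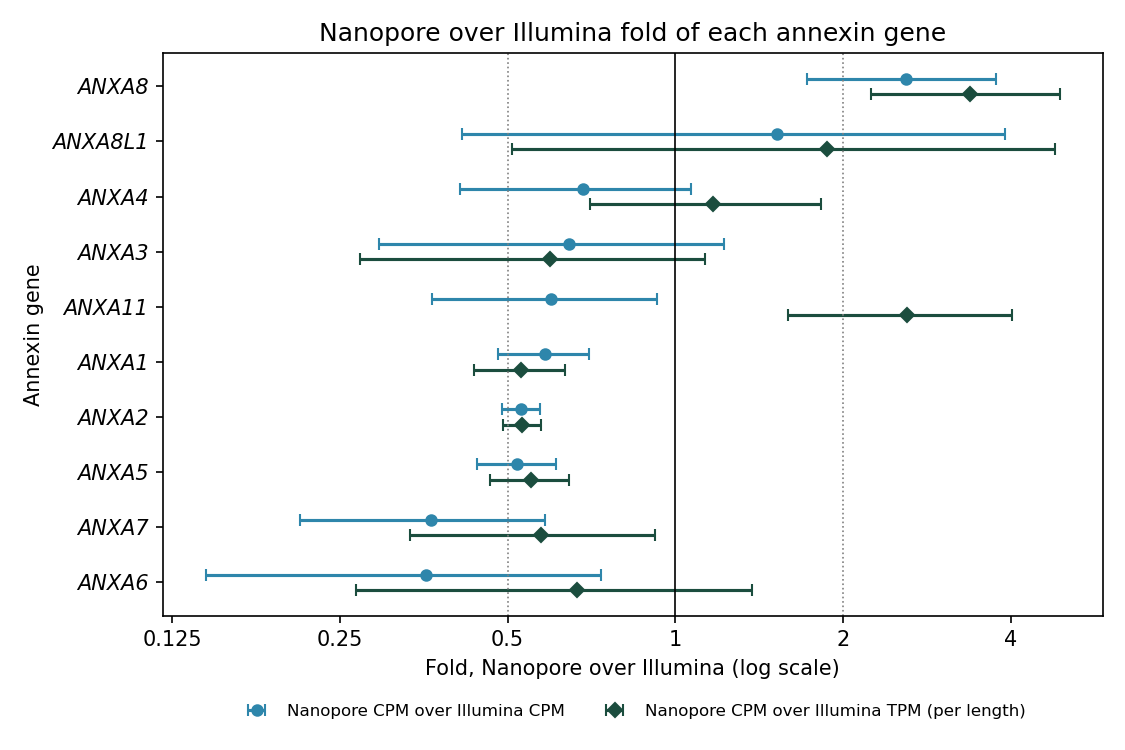
Nanopore over Illumina fold of each annexin gene on a log axis, against Illumina CPM (circles) and Illumina TPM (diamonds), with exact 95% counting intervals; dotted lines mark 2-fold. The intervals of ANXA8 lie to the right of 1 on both scales, those of ANXA1, ANXA2, ANXA5 and ANXA7 lie to the left on both, and that of ANXA11 changes side.

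ANXA2 (ENSG00000182718, chromosome 15, 60347134 to 60402883, minus strand) encodes annexin A2, which pairs with S100A10 at the plasma membrane and serves as a surface site for plasminogen activation. It had 648 Nanopore counts, 1607 CPM, and 582564 Illumina counts, 3038 CPM. At its Illumina share 1225 Nanopore counts would have been drawn. It was 1.89-fold higher by Illumina (95% interval 1.75 to 2.05; exact binomial test, Benjamini-Hochberg adjusted p-value 1.58e-71). The length-scaled fold of Nanopore over Illumina was 0.530 with the canonical transcript of 1554 bases, and it became 2.26 with the union of all exons, 11574 bases over 46 annotated transcripts, so its length-scaled direction depended on the length used. Ranked among all genes, ANXA2 was number 95 by Nanopore counts and number 51 by Illumina TPM with canonical length.

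The pseudogene ANXA2P2 showed a wider gap than ANXA2 in the same direction, with intervals that did not overlap. It had 5 Nanopore counts, 12.4 CPM, and 24696 Illumina counts, 128.8 CPM, and was 10.4-fold higher by Illumina (4.45 to 32.0; exact binomial test, Benjamini-Hochberg adjusted p-value 2.20e-15). ANXA2P1 had 0 Nanopore and 55 Illumina counts, and ANXA2P3 was at 0 in both. Summing ANXA2 with its 3 pseudogenes gave 653 Nanopore and 607315 Illumina counts, 1.96-fold higher by Illumina (1.81 to 2.12), which was close to the fold of ANXA2 alone. How the authors treated reads that match several places is not given in the sources used here.

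ANXA1 (ENSG00000135046, chromosome 9, 73151865 to 73170393, plus strand) encodes annexin A1, an anti-inflammatory protein induced by glucocorticoids that binds S100A11 and signals through formyl peptide receptors. It had 114 Nanopore counts, 283 CPM, and 92898 Illumina counts, 484 CPM, and was 1.71-fold higher by Illumina (1.43 to 2.08; exact binomial test, Benjamini-Hochberg adjusted p-value 2.85e-09). ANXA5 (ENSG00000164111, chromosome 4, 121667946 to 121696995, minus strand) encodes annexin A5, the phosphatidylserine-binding protein used to label dying cells. It had 149 Nanopore counts, 370 CPM, and 136239 Illumina counts, 711 CPM, and was 1.92-fold higher by Illumina (1.64 to 2.27; exact binomial test, Benjamini-Hochberg adjusted p-value 7.05e-18). The folds of ANXA1, ANXA2 and ANXA5 had overlapping intervals, and all 3 stayed on the Illumina side when divided by canonical transcript length, at 0.527, 0.530 and 0.550 Nanopore over Illumina. With the union of all exons the fold of ANXA1 was 0.959, while that of ANXA5 was 0.562. With the mean transcript length the folds were 0.534 for ANXA1, 0.571 for ANXA2 and 0.432 for ANXA5.

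ANXA8 (ENSG00000265190, chromosome 10, 47460162 to 47484158, minus strand) encodes annexin A8, known from stratified and basal epithelia. It had 28 Nanopore counts, 69.4 CPM, and 5130 Illumina counts, 26.8 CPM. At its Illumina share 10.8 Nanopore counts would have been drawn. It was 2.60-fold higher by Nanopore (1.72 to 3.76; exact binomial test, Benjamini-Hochberg adjusted p-value 7.91e-05), and 3.38-fold higher when scaled by length (2.25 to 4.90). It was the only annexin past 2-fold in the Nanopore direction by CPM, and it made up 2.76% of annexin counts by Nanopore and 0.579% by Illumina.

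ANXA8L1 (ENSG00000264230, chromosome 10, 46375627 to 46391784, plus strand) had 4 Nanopore counts, 9.92 CPM, and 1251 Illumina counts, 6.52 CPM. Its fold of 1.52, Nanopore over Illumina, had an interval from 0.414 to 3.90, so a difference could not be resolved with 4 counts. Since the copies are identical over most 150-base stretches, how counts divide between them is uncertain. Their ratio, ANXA8 over ANXA8L1, was 7.0 by Nanopore (2.45 to 27.5) and 3.87 by Illumina TPM (2.37 with the union of all exons). Whether short reads served to correct the long ones ahead of counting is not given in the sources used here, and such a step could change how Nanopore counts divide between these copies, or between ANXA2 and ANXA2P2. Summed, the pair had 32 Nanopore counts, 79.4 CPM, and 6381 Illumina counts, 33.3 CPM, and was 2.38-fold higher by Nanopore (1.63 to 3.37; exact binomial test, Benjamini-Hochberg adjusted p-value 0.0001). The summed copies were thus past 2-fold in the Nanopore direction, as ANXA8 alone was. The lncRNA ENSG00000276850 (chromosome 10, 47908064 to 47991877) also shares sequence with ANXA8, 25.2% of the 50-base stretches of all its annotated transcripts, and had 10 Nanopore and 1076 Illumina counts.

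**Figure D4:**
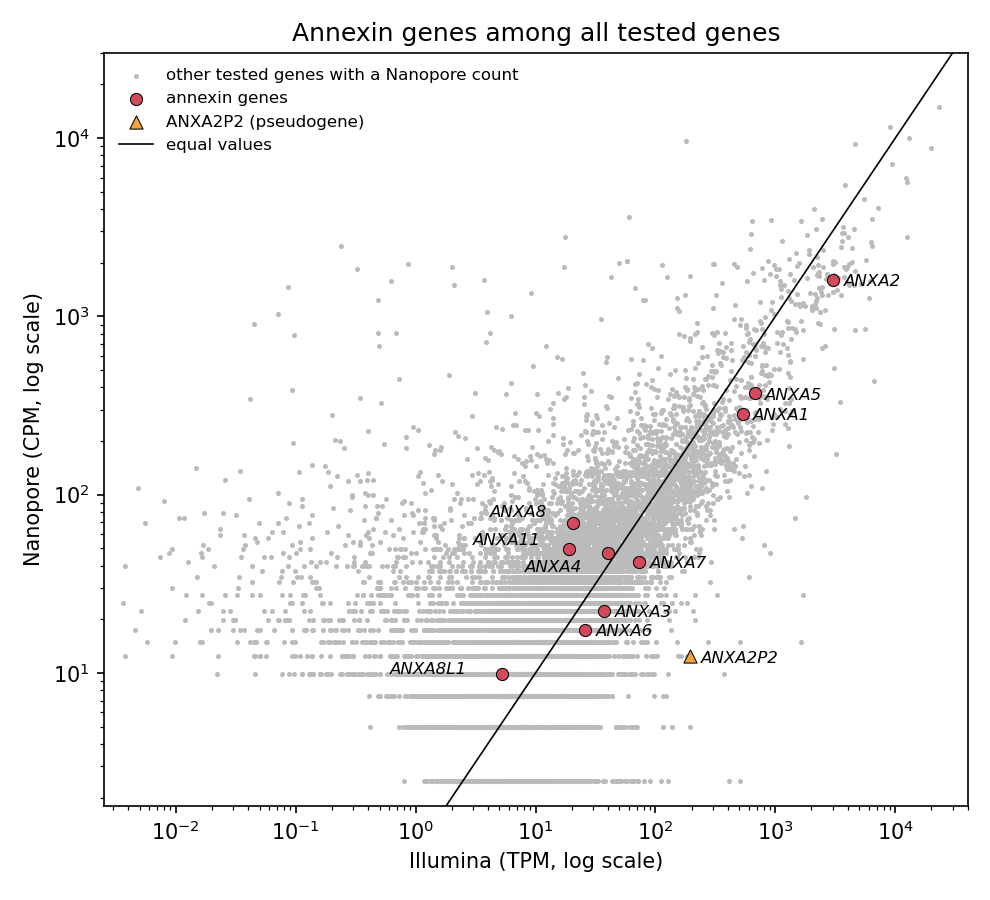
Nanopore CPM against Illumina TPM, both on log axes, for tested genes with a value above 0 on both axes (grey), the 10 annexins (red) and the pseudogene ANXA2P2 (triangle); the line marks equal values. ANXA2, ANXA5 and ANXA1 lie below the line at the upper end, ANXA8 and ANXA11 lie above it, and ANXA2P2 lies far below it at 12.4 CPM and 195.7 TPM.

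ANXA7 (ENSG00000138279, chromosome 10, 73375101 to 73414076, minus strand) encodes annexin A7, which binds sorcin and PDCD6 and acts in secretion and membrane repair. It had 17 Nanopore counts, 42.2 CPM, and 22209 Illumina counts, 115.8 CPM, and was 2.75-fold higher by Illumina (1.72 to 4.72; exact binomial test, Benjamini-Hochberg adjusted p-value 5.61e-06). With canonical length the fold was 0.574, Nanopore over Illumina (0.334 to 0.919). It was 0.385 with the union of all exons and 0.415 with the mean transcript length, both past 2-fold by Illumina. The lncRNA ENSG00000233144 lies within ANXA7 on the opposite strand and had 11 Nanopore counts, 27.3 CPM, and 30 Illumina counts, 0.156 CPM. Their annotated transcripts share 61 stretches of 50 bases, counted on either strand, and whether strand was used in counting is not given in the sources used here.

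ANXA6 (ENSG00000197043, chromosome 5, 151100706 to 151157815, minus strand) encodes annexin A6, whose repeat core is duplicated and which acts in endocytosis and membrane organisation. It had 7 Nanopore counts, 17.4 CPM, and 9318 Illumina counts, 48.6 CPM, and was 2.80-fold higher by Illumina (1.36 to 6.96; exact binomial test, Benjamini-Hochberg adjusted p-value 0.00590). With canonical length the fold was 0.666, Nanopore over Illumina, with an interval from 0.268 to 1.37 that covers 1, and with the mean transcript length it was 0.354. With Illumina counts drawn down to the depth of the Nanopore library the log2 ratio was −1.15, beside −1.43 with all counts, and the exact binomial test no longer passed (Benjamini-Hochberg adjusted p-value 0.20).

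ANXA11 (ENSG00000122359, chromosome 10, 80150889 to 80205572, minus strand) encodes annexin A11, which binds PDCD6 and links RNA granules to lysosomes. It had 20 Nanopore counts, 49.6 CPM, and 15869 Illumina counts, 82.8 CPM, and was 1.67-fold higher by Illumina (1.08 to 2.73; exact binomial test, Benjamini-Hochberg adjusted p-value 0.0391). Its canonical transcript, 6734 bases, is the longest of the family, and divided by it the direction turned to 2.60-fold higher by Nanopore (1.59 to 4.02). With the mean transcript length the fold was 1.34. The direction of this gene thus depended on whether length was taken into account. Under other scalings of the library totals the CPM ratio kept its direction, at a log2 of −0.64 with TMM and −0.60 with median-ratio scaling beside −0.73, but did not pass the exact binomial test (Benjamini-Hochberg adjusted p-values 0.0831 and 0.113).

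ANXA4 and ANXA3 did not pass the test, and their length-scaled direction depended on the length used. ANXA4 (ENSG00000196975, chromosome 2, 69644425 to 69827112, plus strand), which encodes a membrane-binding annexin of secretory epithelia, had 19 Nanopore counts, 47.1 CPM, and 13255 Illumina counts, 69.1 CPM. Its fold was 0.682, Nanopore over Illumina (0.410 to 1.06), and 1.17 with canonical length (0.702 to 1.82). With the union of all exons the fold of ANXA4 was 2.78 and with the mean transcript length 0.839. ANXA3 (ENSG00000138772, chromosome 4, 78551747 to 78610451, plus strand), which is abundant in neutrophils, had 9 Nanopore counts, 22.3 CPM, and 6644 Illumina counts, 34.7 CPM. Its fold was 0.644 (0.294 to 1.22) and 0.595 with canonical length (0.272 to 1.13), and 1.16 with the union of all exons.

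The other annexin genes of the genome were rare. ANXA9 had 0 Nanopore and 721 Illumina counts, 3.76 CPM, which lies under the Nanopore limit of 7.44 CPM. ANXA10, known from stomach and bladder, had 0 and 99 counts, and ANXA13, known from intestine, was at 0 in both. At its Illumina share ANXA9 would have been drawn 1.52 times by Nanopore, so its 0 is no sign of absence.

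Genes that work with annexins were taken from a list of 24 partners, receptors and membrane repair genes. Nanopore had a count for 19 of them and Illumina for 20, and 17 passed the filter. Of all 58735 identifiers 15660 and 27323 had a count, and 12414 passed. By CPM 1 of these 17, S100A4, was at least 2-fold higher by Nanopore and 5 (AHNAK, MYOF, TSG101, HLTF and CAPN2) were at least 2-fold higher by Illumina, against the 19.2% and 30.2% of all tested genes. With canonical length 2, PDCD6IP and AHNAK, were 2-fold higher by Nanopore and 3, S100A11, S100A6 and TSG101, were 2-fold higher by Illumina, against 34.8% and 11.1% of all tested genes. These partner counts were not taken with the other lengths. The canonical and mean transcript lengths were 18761 and 2949 bases for AHNAK and 5884 and 1545 bases for PDCD6IP, so such counts depend on the length used. The median log2 ratio of the 17 partners was −0.50 by CPM, beside −0.42 for all tested genes, and −0.02 with canonical length, beside 0.48. In the exact binomial test, 10 of the 17 had a Benjamini-Hochberg adjusted p-value under 0.05, against the 47.4% of all.

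The S100 proteins are small calcium sensors that bind annexin N-termini. S100A10, the partner of ANXA2, had 379 Nanopore counts, 940 CPM, and 135864 Illumina counts, 709 CPM, with a length-scaled log2 ratio of −0.80 beside −0.91 for ANXA2. There were 0.585 S100A10 strands per ANXA2 strand by Nanopore (0.514 to 0.665) and 0.540 by Illumina TPM with canonical lengths, a value within the Nanopore interval. The Illumina ratio was 0.570 with mean transcript lengths and 2.67, outside that interval, with the union of all exons. S100A11, the partner of ANXA1, had 364 Nanopore counts, 903 CPM, and 164857 Illumina counts, 860 CPM. It was 3.19 times ANXA1 by Nanopore (2.58 to 3.98) and 4.42 times by Illumina TPM, which is outside that interval, but 3.48 times with mean transcript lengths and 12.2 times with the union of all exons. S100A6 had 997 Nanopore and 343472 Illumina counts, and S100A4 had 36 and 5755.

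The calcium-binding partners of ANXA7 and ANXA11 were of middle abundance. SRI, which encodes sorcin, had 48 Nanopore counts, 119 CPM, and 21895 Illumina counts, 114 CPM. SRI was 2.82 times ANXA7 by Nanopore (1.59 to 5.24) and 1.22 times by Illumina TPM (0.668 with the union of all exons and 1.38 with mean transcript lengths). PDCD6 had 40 Nanopore counts, 99.2 CPM, and 13954 Illumina counts, 72.8 CPM, and was 2.00 times ANXA11 by Nanopore (1.14 to 3.61) and 5.33 times by Illumina TPM with canonical lengths, 1.67 times with mean transcript lengths and 0.805 times with the union of all exons.

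Scaffold and membrane repair genes differed in how far their ratio moved on division by canonical length. AHNAK, a giant scaffold that binds ANXA2 with S100A10, had 46 Nanopore counts, 114 CPM, and 110376 Illumina counts, 576 CPM. Its log2 ratio was −2.33 by CPM and 1.25 with its canonical transcript of 18761 bases, while its mean transcript length is 2949 bases. MYOF, a ferlin of membrane repair, had 15 Nanopore and 30001 Illumina counts, with log2 ratios of −2.04 and 0.07. TSG101, of the ESCRT machinery that pinches off damaged membrane, had 11 and 13138 counts and log2 ratios of −1.30 and −1.31, so its direction was the same on both scales. Other ESCRT genes were PDCD6IP, with 33 and 22098 counts, CHMP4B, with 39 and 21543, and VPS4B, with 17 and 11477, and their ratios by CPM, from −0.21 to −0.50, did not pass the test. The calpain proteases, which calcium activates during repair, were all higher by Illumina CPM. CAPN2 had 118 and 124972 counts and a log2 ratio of −1.15, CAPN1 33 and 30227 with −0.94, and their small subunit CAPNS1 91 and 64980 with −0.58. With canonical length these were −0.04, −0.02 and −0.70.

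Receptors of secreted annexins were near or at 0. FPR1, a formyl peptide receptor for ANXA1, had 1 Nanopore and 31 Illumina counts, and FPR2 and FPR3 were at 0 in both libraries. PLG, the plasminogen gene, and TRIM72, a muscle repair gene, were also at 0 in both, which allows up to 0.0156 CPM by Illumina. ANXA2R had 1 and 173 counts. PLAT, which encodes tissue plasminogen activator and not a receptor, was not near 0 and passed the filter. It had 4 Nanopore counts, 9.92 CPM, and 3662 Illumina counts, 19.1 CPM.

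**Figure D5:**
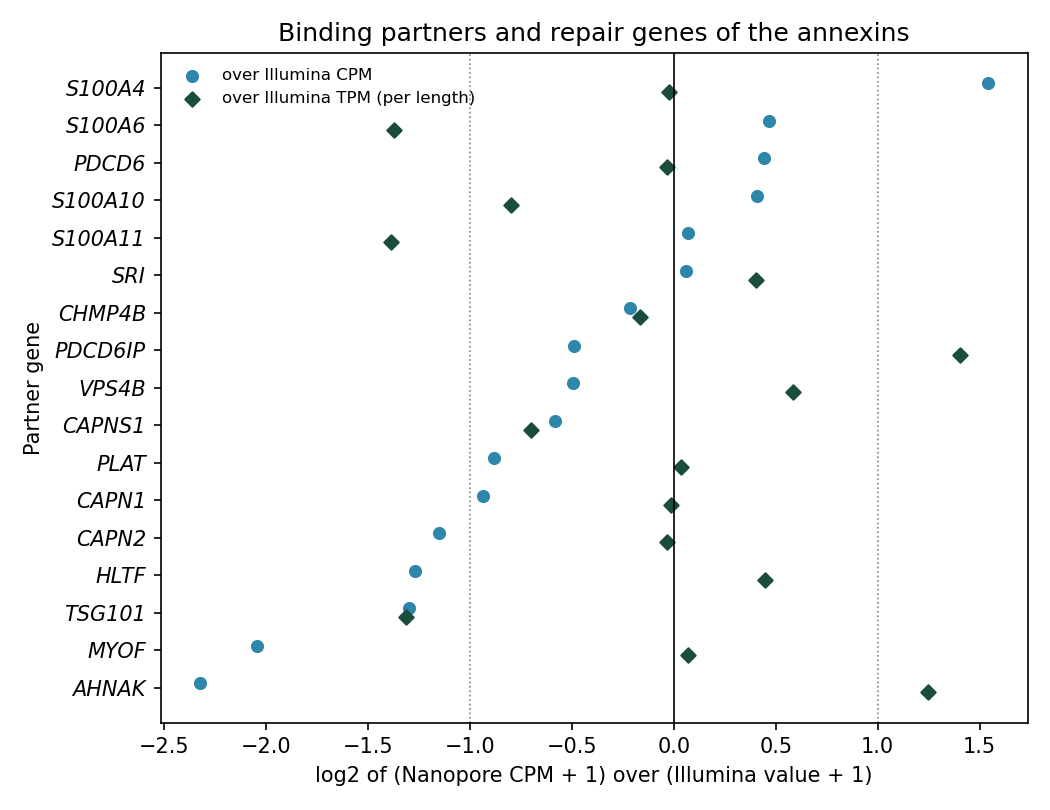
The log2 ratio, Nanopore CPM over the Illumina value with 1 added to each, for the 17 partner genes that passed the 5 CPM filter, against Illumina CPM (circles) and Illumina TPM (diamonds); dotted lines mark 2-fold. AHNAK moves from −2.33 to 1.25 and S100A6 from 0.46 to −1.37 on division by canonical transcript length, while CHMP4B and TSG101 hardly move.

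The genes nearest to ANXA2 in its level in both libraries, by distance in log2 Nanopore CPM and log2 Illumina TPM over the 2 libraries, were MT-ND5, ENO1 and MT1X. Their Nanopore counts were 634, 692 and 638, against 648 for ANXA2. The TPM here was by canonical length, and distances with other lengths were not taken. With the union of all exons the TPM of ANXA2 was 711, beside 3030 with canonical length.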

How the data were processed

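The authors deposited whole-number counts per Ensembl gene, without normalization, for 1 Nanopore direct RNA library and 1 Illumina TruSeq stranded mRNA library, each its own group by its title. Per the submitters' processing notes, minimap2 2.11-r797, HISAT2 2.1.0, featureCounts and hg38 were used; their roles, the annotation release and the counting options are not given in the sources used here, and the Nanopore column's name carries a tag that the labels leave unexplained, so whether its reads were corrected with short reads, and so are independent of the Illumina reads, is not known here. Of 58735 identifiers 58207 were in GENCODE release 44 (hg38), the source of names, coordinates and lengths.

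CPM, Illumina TPM by Ensembl canonical transcript length, and log2 ratios with a pseudocount of 1 CPM were computed. Genes averaging 5 CPM or more over both libraries were tested by a two-sided exact conditional binomial test with Benjamini-Hochberg adjustment over all of them, at 0.05; intervals are exact Clopper-Pearson, 95%, without pseudocount. PCR copies in the Illumina library are not separate molecules, so intervals and limits cover counting error only. With 1 library per platform no quasi-likelihood model was fitted. Simulated counts at these depths had 100 genes raised and 100 lowered 4-fold. The test with a 2-fold minimum called 100 and 73 of them, and 0 of 11372 genes with none changed. The simulated counts held counting error only, as the test assumes, and the changed genes were drawn from the more abundant ones. They therefore cannot show how the test treats other differences between the libraries, or calls made without the 2-fold minimum. Shared sequence was counted as 50-base stretches in GENCODE transcripts on either strand. TMM scaling used edgeR 4.0.16, and placements of transcripts used minimap2 2.31. Named genes were all members, other genes named ANXA, overlapping genes with at least 10 counts, listed partners, genes sharing at least 10% of a member's stretches, and the 3 genes nearest to the most abundant member. Ratios between a partner and its annexin were chosen after values were seen. Members and lists were chosen with earlier results of these data known.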

Additional observations from a re-analysis of the deposited data

How the results depend on the processing

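No paired analysis was possible because each platform has 1 library, and none could be left out. Of 73 values of the annexin log2 ratios by CPM under the alternatives, 64 kept their direction and their side of the threshold, 6 lost their call (ANXA6 and ANXA11), 1 gained it (ANXA8L1 summed with its copy) and 2 reversed. The reversals came with division by canonical transcript length, to 0.22 for ANXA4 and 1.34 for ANXA11. Length-scaled, the log2 ratio changed sign to 1.18 for ANXA2 and 0.21 for ANXA3 with the union of all exons, and to −0.25 for ANXA4 with mean transcript length. Other scalings raised ratios by 0.088 (TMM) and 0.13 (median ratio) on the log2 scale, and changed no direction of an annexin.

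Counts of genes past 2-fold moved as follows. With Illumina counts drawn down to the Nanopore depth, 3 annexins and 6 partners were higher by Illumina, beside 2 and 5 with all counts. The added annexin was ANXA3, at a log2 ratio of −1.12. Division by canonical length gave 2 annexins higher by Nanopore and 0 by Illumina, and 2 and 3 partners. A 4-fold minimum gave 0 and 0 annexins, and 0 and 2 partners. No filter gave 2 partners higher by Nanopore, where the added gene was FPR1, with 1 Nanopore count. With canonical length the shares of all tested genes past the fold were 34.8% and 11.1%, as given above. Such shares were not computed with drawn-down counts, at the 4-fold minimum or without the filter. Those counts therefore have no background beside them. Length-scaled, mean transcript length gave 1 annexin higher by Nanopore and 3 higher by Illumina, and union length gave 3 and 1. The annexin share of counts was 0.280% by Nanopore and 0.490% by Illumina without mitochondrially encoded genes. The Illumina share was 0.475% with the other genes named ANXA, 0.458% without ANXA8 and ANXA8L1, and 0.446% as TPM. Nanopore depth limits the 7 rarer annexins, at 4 to 28 counts each.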

Other observations

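Genes whose bodies overlap an annexin were mostly rare. AAK1, on the strand opposite to ANXA4, had 1 Nanopore and 6204 Illumina counts. The lncRNA genes ENSG00000279458 and ENSG00000285402, which overlap ANXA8L1 on the same strand, had 3 and 5 Nanopore counts and 315 and 23 Illumina counts, beside 4 and 1251 for ANXA8L1. RPL36AP44, a pseudogene within ANXA2, had 0 and 22. At the locus of ANXA2R the lncRNA genes ANXA2R-AS1 and ANXA2R-OT1 had 1 Nanopore count each, and 295 and 305 Illumina counts.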
